A study of Mus musculus with 15 samples.

Results

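Imprinted genes are transcribed from a single parental copy. The list described here held 40 mouse imprinted genes, chosen by symbol, and 31 of them were found among the 21212 probe sets of the array through the platform annotation. Each of the 31 had 1 probe set. By the copy that is usually expressed, 20 were paternal, 10 maternal and 1 (Gnas) isoform dependent. Of the 9 members not found by symbol, H19, Zrsr1 and Slc22a3 had a probe set whose number matched their RefSeq gene number. They are given separately and stay out of all counts. Rian, Mirg, Snrpn, Kcnq1ot1, Peg13 and Airn were not analysed here.

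RNA came from E14TG2a.4 mouse embryonic stem cells, a feeder-independent line grown on gelatin with 15% serum and leukaemia inhibitory factor (LIF), described as passage 17. A pLKO.1 lentivirus brought a short hairpin RNA (shRNA), which breaks down the messenger RNA it matches, into the cells of all groups. Puromycin at 2 µg per ml, started 36 h after transduction and kept for 72 h, removed cells without the vector. In the Tet1 set of 9 arrays, cells with either of 2 hairpins against Tet1, shRNA 4 or shRNA 5, stand against cells with a scrambled hairpin. In the Sin3A set of 6 arrays, a single hairpin against Sin3a stands against other scrambled arrays. Each of the 5 groups had 3 arrays. The labels call them triplicates and name no separate cultures, so each p-value rests on array-to-array spread alone, possibly technical. All groups, controls included, carried a viral vector and had gone through drug selection, and transduced cells were selected together and not cloned, as far as the labels describe. In such bulk RNA, fewer cells that express a gene and less RNA per cell cannot be told apart. The arrays also sum both parental copies, so a change in level says nothing of which copy changed.

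Imprints are DNA methylation marks laid down in the egg or the sperm at control regions, and they must survive the wave of demethylation in the early embryo. The zinc-finger protein ZFP57 binds the methylated hexamer TGCCGC at these regions and brings in TRIM28 (also KAP1), which helps to keep the mark. TET1 oxidises methylated cytosine to hydroxymethylcytosine and is abundant in embryonic stem cells, where imprinted genes are also known to vary between cultures. SIN3A holds together a co-repressor complex that contains histone deacetylases. The comparisons ask which imprinted genes change in level when Tet1 is reduced, and whether they also change when Sin3a is reduced.

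Values are deposited log2 expression values, so a difference of 1 is a 2-fold change. A gene is said to have risen or fallen where limma, fitted over all probe sets, gave a Benjamini-Hochberg adjusted p under 0.05. The targeted transcripts were lower in the matching knockdown. Tet1 fell from 12.20 ± 0.02 to 10.42 ± 0.03 and 10.09 ± 0.14 (SD, n = 3 each, 3.43-fold and 4.30-fold), and Sin3a fell 2.93-fold with its own hairpin. Each target also changed in the other knockdown: Sin3a by -0.27 and -0.24 with the Tet1 hairpins (limma adjusted p = 0.0147 and 0.0219, lost for shRNA 4 without scrambled replicate 1 or its own replicate 1 or 3, and for shRNA 5 without scrambled replicate 1 or 3 or its own replicate 1 or 3), and Tet1 by 0.31 with the Sin3A hairpin (0.00679). Replicate arrays correlated with r of 0.994 to 0.998 over probe sets. In the Tet1 set, scrambled replicate 2 and shRNA 4 replicate 2 deviated from their groups alike (r = 0.517 between deviations). With both left out, Ascl2 was the only member to lose a call in the Tet1 comparisons, and calls gained are given beside the gene. All 15 embryonic stem cell markers of a list that included Pou5f1, Nanog and Sox2 had signals above the median probe set in both sets. The 2 sets were normalized separately (column means of 7.08 to 7.11 and of 8.09), so levels are compared within a set.

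Among the imprinted genes, decreases outnumbered increases with both Tet1 hairpins. With shRNA 4, 12 of 31 members fell and 0 rose, against 4.71% lower and 6.88% higher among all probe sets. With shRNA 5, 12 fell and 1 rose, against 5.46% and 8.37%. Peg10, Peg3, Igf2, Sgce, Mest, Impact, Ube3a, Grb10, Phlda2 and Zdbf2 fell with both hairpins, which makes 10 lower and 0 higher. Of all probe sets 3.40% fell and 5.40% rose with both, 8.81% in either direction. At an unadjusted p under 0.05, limma put 16 members lower and 3 higher with shRNA 4, and 12 lower and 4 higher with shRNA 5. The share of all probe sets at that unadjusted threshold was not counted, so these numbers have no background beside them. With the replicate number as a block and only the scrambled and shRNA 4 arrays in the fit, 12 fell and 1 (Mcts2) rose with shRNA 4. The median change of the members was -0.19 with shRNA 4 and -0.12 with shRNA 5, where the median of all probe sets was 0.00 for each. Both Tet1 comparisons share the same 3 scrambled arrays, so their counts are not independent of each other. With the Sin3A hairpin 6 members fell and 2 rose, against 12.6% and 12.2% of all probe sets, with a member median of -0.03. Across the 3 comparisons with scrambled, 16 members were called at least once and 15 never. Among all probe sets 11.6% were called in either direction with shRNA 4, 13.8% with shRNA 5 and 24.8% with Sin3A. The share of them called at least once was not counted.

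The arrays themselves separated in the same way. All 3 shRNA 4 arrays lay below all 3 scrambled arrays for 16 members (10.9% of all probe sets) and above them for 2 (14.1%). For shRNA 5 the numbers were 13 below (11.9%) and 5 above (3605 of all 21212 probe sets), and all 6 Tet1 shRNA arrays lay below the scrambled arrays for 12 members (7.54%). For the Sin3A hairpin they were 8 below (20.1%) and 3 above (20.4%).

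**Figure D1:**
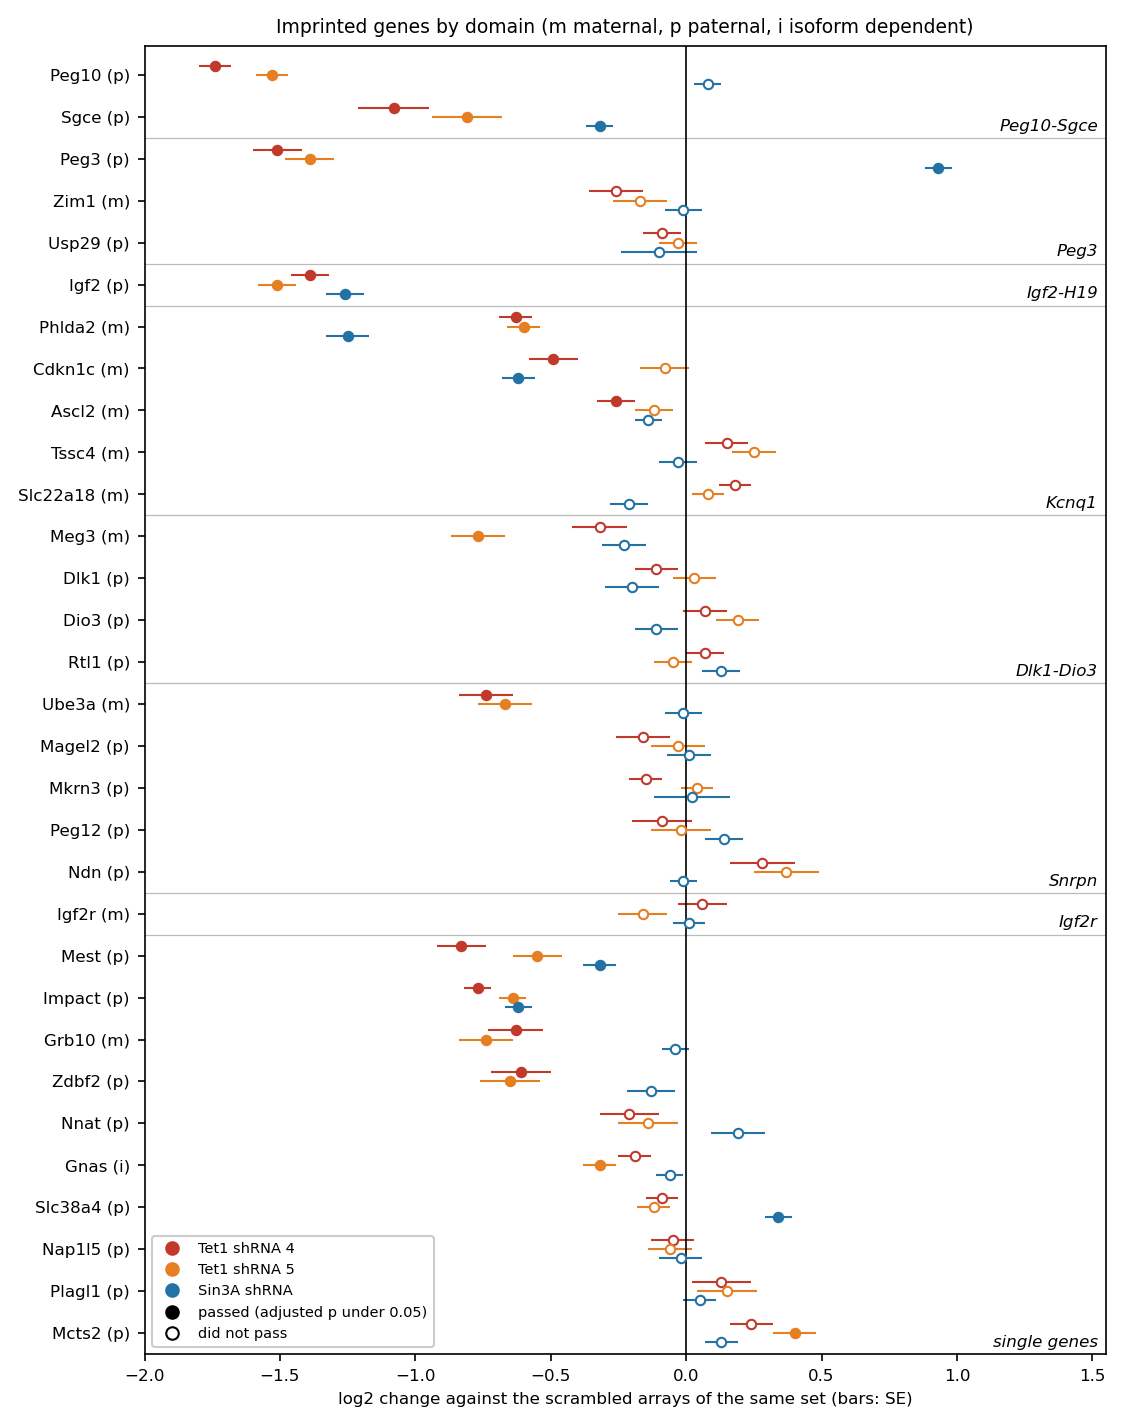
Log2 change of each of the 31 imprinted genes (x axis, bars are SE of the limma fit) by imprinted domain (y axis), for both Tet1 shRNAs and the Sin3A shRNA against the scrambled arrays of the same set. Filled points passed the threshold. The filled Tet1 points lie left of 0 except Mcts2 at 0.40 with shRNA 5, and Peg3 has its Sin3A point at 0.93, on the other side of its Tet1 points.

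Peg10 and Sgce are neighbours that share a control region and are expressed from the paternal copy. Peg10 is a retrotransposon-derived gene needed to build the placenta. Its scrambled arrays read 12.63, 12.65 and 12.68, the shRNA 4 arrays 10.95, 10.90 and 10.86, and the shRNA 5 arrays 11.06, 11.15 and 11.16. Both knockdown groups lay far below the scrambled arrays without overlap, and shRNA 4 lay a little below shRNA 5. Peg10 fell 3.35-fold with shRNA 4 (-1.74 ± 0.06, SE, limma adjusted p = 5.94e-07) and 2.88-fold with shRNA 5 (-1.53 ± 0.06, 1.51e-06), the largest decreases among the members. Among the Sin3A arrays, the scrambled ones read 12.89, 12.94 and 12.89 and the Sin3A shRNA arrays 12.92, 13.01 and 13.02, ranges that meet. The Sin3A change of 0.08 did not pass (95% interval -0.04 to 0.20, limma adjusted p = 0.32).

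Sgce, which encodes epsilon-sarcoglycan of the muscle membrane complex, followed its neighbour in the Tet1 set. It read 7.49, 7.29 and 7.57 with the scrambled hairpin, 6.55, 6.04 and 6.52 with shRNA 4, and 6.59, 6.59 and 6.74 with shRNA 5. Replicate 2 of shRNA 4 was the lowest array, and no knockdown array reached the scrambled ones. The changes were -1.08 ± 0.13 and -0.81 ± 0.13 (SE, limma adjusted p = 6.24e-04 and 0.00298). With the Sin3A hairpin Sgce also fell, by a smaller step: from 8.62, 8.69 and 8.57 to 8.31, 8.28 and 8.31 (-0.32 ± 0.05, limma adjusted p = 0.00321). That call was lost when all 15 arrays shared a single fit (adjusted p = 0.0505).

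Peg3 encodes a paternally expressed zinc-finger protein, and Usp29, a deubiquitinase gene read from the same copy, starts close by and runs the other way. In RefSeq's annotation of GRCm38.p6 the transcript starts of Peg3 and Usp29 leave a gap of 163 bases, chr7:6730420-6730582, which is shown because the genes on either side of it gave different calls. It is printed 5′ to 3′ on the minus strand, the strand of Peg3, in lower case throughout because it holds 0 matches to TGCCGC, the hexamer bound by ZFP57, on either strand. It holds 5 CpG sites.
Peg3 to Usp29 gap: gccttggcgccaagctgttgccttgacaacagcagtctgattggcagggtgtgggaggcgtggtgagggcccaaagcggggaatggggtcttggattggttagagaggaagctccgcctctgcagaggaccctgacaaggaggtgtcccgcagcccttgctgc

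Peg3 moved in opposite directions in the 2 knockdowns. The scrambled arrays of the Tet1 set read 10.39, 10.20 and 10.35, the shRNA 4 arrays 8.84, 8.77 and 8.80, and the shRNA 5 arrays 8.75, 8.97 and 9.07. These were decreases of 2.85-fold and 2.62-fold (-1.51 ± 0.09 and -1.39 ± 0.09, SE, limma adjusted p = 1.08e-05 and 1.95e-05), with no overlap between the groups. In the Sin3A set Peg3 went from 10.88, 10.81 and 10.81 up to 11.72, 11.75 and 11.82, all 3 knockdown arrays above the controls. That was an increase of 1.91-fold (0.93 ± 0.05, limma adjusted p = 5.01e-05), the larger of the 2 increases among the members with this hairpin. Usp29 gave a dim signal (5.09 in each scrambled array of the Tet1 set) and did not pass, with changes of -0.09 and -0.03 for the Tet1 hairpins and -0.10 for Sin3A. Zim1, a maternally expressed zinc-finger gene of the same domain, was as dim (5.57 ± 0.21, SD, n = 3) and did not pass either, at -0.26, -0.17 and -0.01.

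Igf2 encodes the fetal growth factor insulin-like growth factor II and is read from the paternal copy, while the non-coding H19 next to it is read from the maternal one. Igf2 read 8.11, 8.31 and 8.08 with the scrambled hairpin, 6.73, 6.79 and 6.83 with shRNA 4, and 6.58, 6.70 and 6.70 with shRNA 5. The knockdown arrays fell into a narrow band more than 1 log2 unit below every scrambled array. The decreases were 2.61-fold and 2.85-fold (-1.39 ± 0.07 and -1.51 ± 0.07, SE, limma adjusted p = 7.45e-06 and 7.55e-06). The Sin3A hairpin lowered it as well, from 10.97, 10.91 and 10.98 to 9.76, 9.75 and 9.56 (2.40-fold, -1.26 ± 0.07, limma adjusted p = 4.54e-05). H19, matched by gene number alone, was dim (6.05 ± 0.09 in the scrambled arrays of the Tet1 set, SD, n = 3) and did not pass in any comparison, at 0.05, -0.05 and 0.02.

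**Figure D2:**
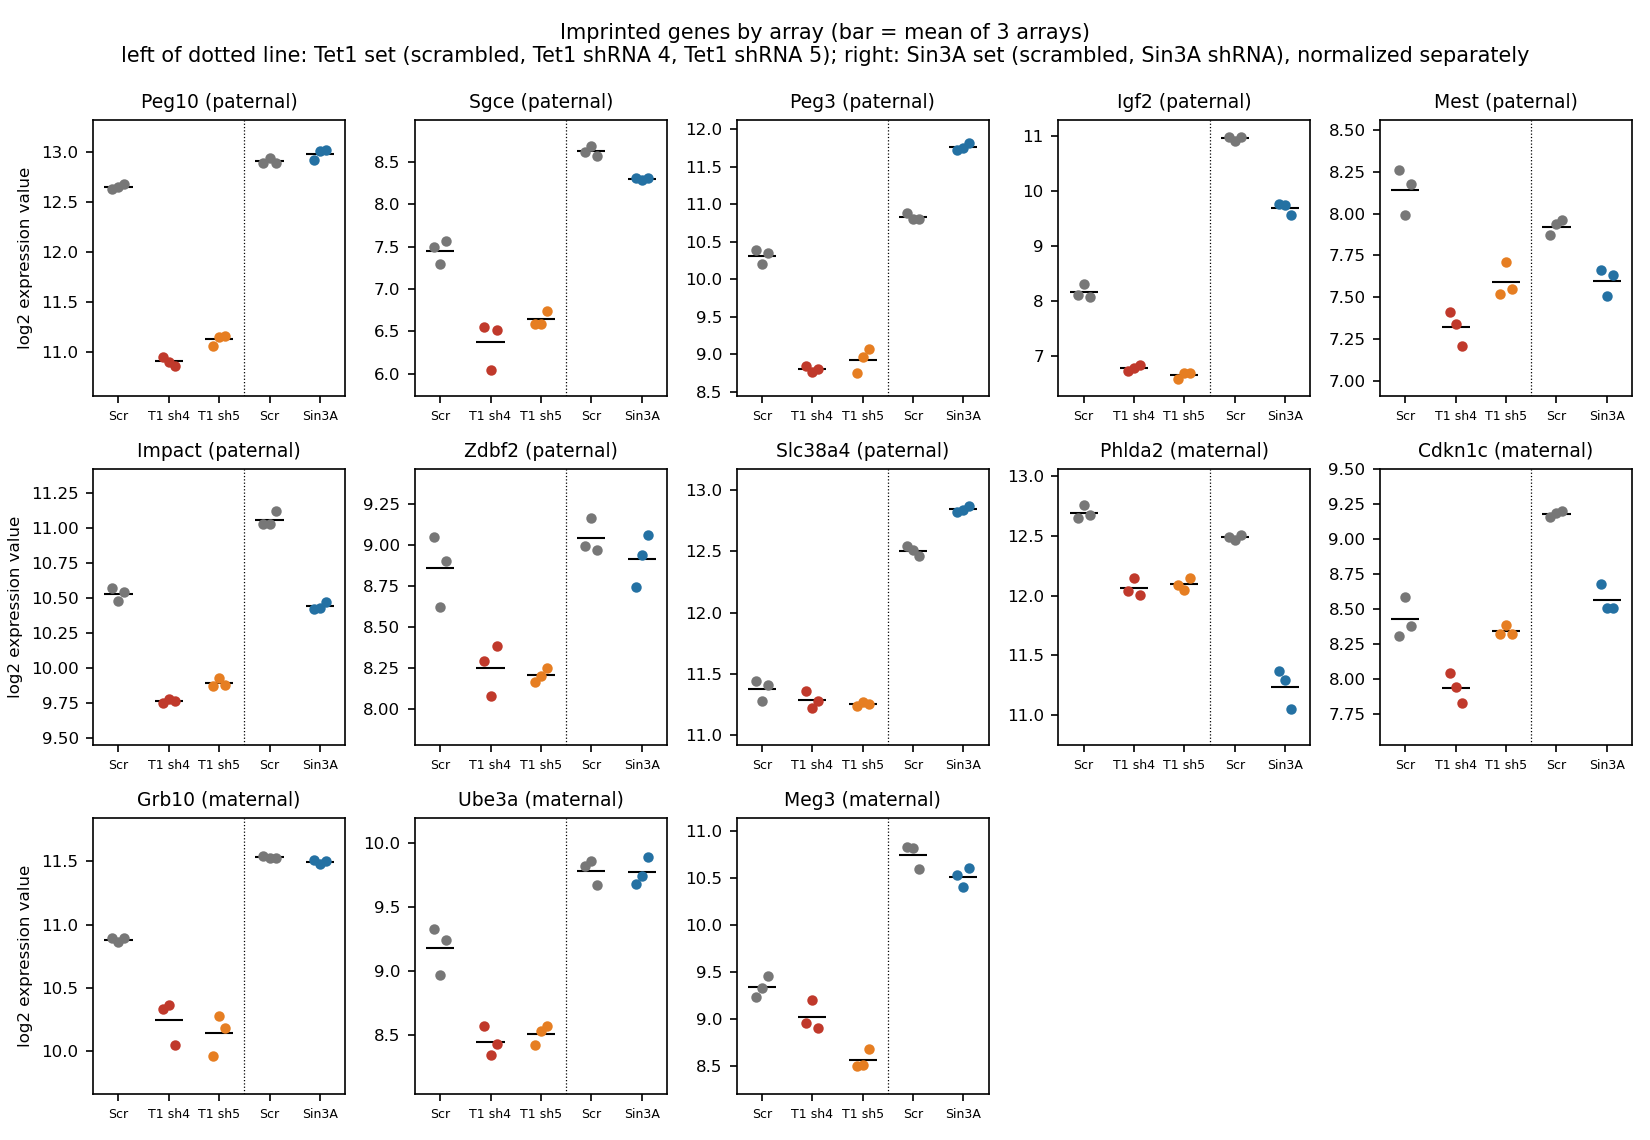
Deposited log2 values (y axis) in each array (points) for the 13 imprinted genes that passed for both Tet1 hairpins, for Sin3A, or for 1 Tet1 hairpin with a change of at least 0.5; bars are means of 3 arrays. Left of each dotted line are the scrambled, Tet1 shRNA 4 and Tet1 shRNA 5 groups, right of it the scrambled and Sin3A shRNA groups of the separately normalized Sin3A set. Peg10 drops to between 10.86 and 11.16 in the Tet1 knockdowns and stays between 12.92 and 13.02 with the Sin3A hairpin.

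The Kcnq1 domain on chromosome 7 holds maternally expressed genes, which are silenced on the paternal copy, and the paternally expressed non-coding Kcnq1ot1. Of its 5 measured members, 1 fell with both Tet1 hairpins (20.0%, against 3.40% of all probe sets). With Sin3A 2 fell (40.0%, against 12.6%). The 250 bases before the annotated start of Phlda2 are shown as an example of a CpG-rich promoter (21 CpG sites) of a member that fell, with 0 matches to the hexamer: GRCm38.p6 chr7:143502525-143502774, minus strand, 5′ to 3′.
Phlda2 upstream: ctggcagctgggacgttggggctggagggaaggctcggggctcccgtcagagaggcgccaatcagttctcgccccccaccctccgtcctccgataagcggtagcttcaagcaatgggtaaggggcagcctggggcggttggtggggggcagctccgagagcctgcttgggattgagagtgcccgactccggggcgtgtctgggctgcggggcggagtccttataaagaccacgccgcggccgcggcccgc

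Phlda2 encodes a small pleckstrin-homology protein that restrains growth of the placenta. It read 12.65, 12.76 and 12.68 in the scrambled arrays, 12.04, 12.15 and 12.01 with shRNA 4, and 12.09, 12.05 and 12.15 with shRNA 5. Both hairpins shifted it by a similar step, -0.63 ± 0.06 and -0.60 ± 0.06 (SE, limma adjusted p = 2.16e-04 and 2.81e-04). The Sin3A step was larger, from 12.49, 12.47 and 12.51 down to 11.37, 11.29 and 11.05 (2.38-fold, -1.25 ± 0.08, limma adjusted p = 7.76e-05).

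Cdkn1c, an inhibitor of cyclin-dependent kinases that limits fetal growth, fell with shRNA 4 and with Sin3A. Its scrambled arrays read 8.31, 8.59 and 8.38, the shRNA 4 arrays 8.04, 7.94 and 7.83, and the shRNA 5 arrays 8.32, 8.39 and 8.32. The shRNA 4 arrays lay below the scrambled ones, while the shRNA 5 arrays lay among them. The change with shRNA 4 was -0.49 ± 0.09 (SE, limma adjusted p = 0.00471) and with shRNA 5 -0.08 (95% interval -0.27 to 0.11, 0.636). The test between the hairpins did not pass (0.41 ± 0.09, limma adjusted p = 0.15). Cdkn1c in the Sin3A set fell from 9.16, 9.19 and 9.20 to 8.68, 8.51 and 8.51 (-0.62 ± 0.06, limma adjusted p = 4.14e-04).

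Ascl2, a transcription factor of trophoblast, fell slightly with shRNA 4 (-0.26 ± 0.07, SE, limma adjusted p = 0.0429). It no longer passed when scrambled replicate 2 or 3, or any single array of either Tet1 hairpin, was left out, nor with a replicate block over all 9 arrays, with the shRNA 5 arrays out of the fit or with the 2 arrays that stood apart left out (limma adjusted p = 0.0517 to 0.157). With the block and only the scrambled and shRNA 4 arrays it passed (limma adjusted p = 0.0369). Its changes of -0.12 and -0.14 with shRNA 5 and Sin3A did not pass. Tssc4 (0.15, 0.25 and -0.03) and the transporter gene Slc22a18 (0.18, 0.08 and -0.21) were not called in any of the 3 comparisons.

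In the Dlk1-Dio3 domain the maternally expressed long non-coding RNA Meg3 read 9.23, 9.33 and 9.45 with the scrambled hairpin, 8.95, 9.20 and 8.90 with shRNA 4, and 8.50, 8.51 and 8.68 with shRNA 5. All knockdown arrays lay below the scrambled ones, and the shRNA 5 arrays also lay below those of shRNA 4. Meg3 fell with shRNA 5 (-0.77 ± 0.10, SE, limma adjusted p = 6.65e-04), and its change with shRNA 4 did not pass (-0.32 ± 0.10, 0.0617). With all arrays kept, the shRNA 4 change passed after median centring (limma adjusted p = 0.0443), repeated quantile normalization (0.0408), a filter on dim probe sets (0.0428) and an intensity trend (0.0499). Without the 2 arrays that stood apart it was -0.41 and passed too (limma adjusted p = 0.036). The difference between the hairpins of -0.45 did not pass (limma adjusted p = 0.154). Meg3 in the Sin3A set read 10.83, 10.81 and 10.59 in scrambled arrays against 10.53, 10.40 and 10.60, ranges that touch, and the change of -0.23 did not pass (limma adjusted p = 0.0761). The paternally expressed genes of the domain were not called: Dlk1, a Notch-like ligand (-0.11, 0.03 and -0.20 for shRNA 4, shRNA 5 and Sin3A), the deiodinase gene Dio3 (0.07, 0.19 and -0.11) and the retrotransposon-derived Rtl1 (0.07, -0.05 and 0.13). Of these Dlk1 had a signal above the median probe set, and Dio3 and Rtl1 were dim.

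In the Snrpn domain Ube3a was the member that fell. It encodes a ubiquitin ligase lost in Angelman syndrome and is known to be imprinted in neurons and read from both copies in most other cells. The scrambled arrays read 9.33, 8.97 and 9.24, the shRNA 4 arrays 8.57, 8.34 and 8.43, and the shRNA 5 arrays 8.42, 8.53 and 8.57, without overlap. The changes were -0.74 ± 0.10 and -0.67 ± 0.10 (SE, limma adjusted p = 0.00116 and 0.00185). The Sin3A set read 9.82, 9.86 and 9.67 with the scrambled hairpin against 9.68, 9.74 and 9.89, fully mixed (-0.01, 95% interval -0.19 to 0.16). Ndn, which encodes a MAGE-family growth suppressor, was on the higher side with both Tet1 hairpins (0.28 and 0.37) without passing (limma adjusted p = 0.209 and 0.0827). Without replicate 2 of shRNA 4 it passed for both (0.41 and 0.37, limma adjusted p = 0.0484 and 0.0362), so that 1 array decides whether 0 or 1 member rose with both. Magel2, Mkrn3 and Peg12 had signals below the median probe set and did not pass in any comparison, with changes between -0.16 and 0.14. Igf2r, the receptor that clears IGF2 and is read from the maternal copy, did not pass (0.06, -0.16 and 0.01), nor did Slc22a3 of the same domain, matched by gene number (0.01, -0.09 and 0.01).

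Among the 10 members outside these domains, Mest, Impact, Grb10 and Zdbf2 fell with both Tet1 hairpins. Of these 4, Impact had no window among those examined, so whether it holds the ZFP57 hexamer is not known here. Mest and Zdbf2 hold the hexamer in the 250 bases before a start, so both are shown. They are printed 5′ to 3′ on the plus strand, with TGCCGC and its reverse complement GCGGCA in capitals. For Mest the 250 bases before an annotated start are GRCm38.p6 chr6:30737800-30738049, with 2 matches. For Zdbf2 they are chr1:63200108-63200357, with 3. Each gene has another annotated start whose window holds 0 matches. The hexamer also occurs in windows, which run 50 bases past the start, of Grb10, Plagl1, Nnat, Mcts2 and Nap1l5. Of these only Grb10 fell with both hairpins. Inside the domains described above, windows of Igf2, Meg3 and Zim1 hold it as well. Igf2 fell with both hairpins, Meg3 with 1 of them and Zim1 with neither.
Mest upstream: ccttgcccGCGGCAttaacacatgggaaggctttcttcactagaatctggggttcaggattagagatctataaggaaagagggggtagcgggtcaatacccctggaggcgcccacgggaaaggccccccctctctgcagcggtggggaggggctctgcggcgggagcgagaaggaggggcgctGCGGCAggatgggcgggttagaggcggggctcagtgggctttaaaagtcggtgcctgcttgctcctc
Zdbf2 upstream: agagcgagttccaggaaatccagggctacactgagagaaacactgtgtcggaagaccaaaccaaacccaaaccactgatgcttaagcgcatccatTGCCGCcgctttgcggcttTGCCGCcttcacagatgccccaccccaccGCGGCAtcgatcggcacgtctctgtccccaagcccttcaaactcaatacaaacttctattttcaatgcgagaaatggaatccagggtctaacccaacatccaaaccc

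Mest, a paternally expressed gene for a hydrolase-like protein, read 8.26, 7.99 and 8.18 with the scrambled hairpin, 7.41, 7.34 and 7.21 with shRNA 4, and 7.52, 7.71 and 7.55 with shRNA 5. The groups did not overlap, and the shRNA 4 arrays were the lowest. Mest changed by -0.83 ± 0.09 and -0.55 ± 0.09 (SE, limma adjusted p = 3.10e-04 and 0.0028), and the difference of 0.28 between the hairpins did not pass (0.364). With Sin3A it went from 7.87, 7.94 and 7.96 to 7.66, 7.51 and 7.63, again without overlap (-0.32 ± 0.06, limma adjusted p = 0.00617). Zdbf2, a paternally expressed zinc-finger gene, read 9.05, 8.62 and 8.90, then 8.29, 8.08 and 8.38 with shRNA 4 and 8.16, 8.20 and 8.25 with shRNA 5. Its scrambled arrays spread more than the knockdown arrays of shRNA 5, and still no value overlapped. The changes were -0.61 ± 0.11 and -0.65 ± 0.11 (SE, limma adjusted p = 0.00688 and 0.00414). With Sin3A, Zdbf2 went from 8.99, 9.16 and 8.97 in scrambled arrays to 8.74, 8.94 and 9.06, and the change of -0.13 did not pass (95% interval -0.34 to 0.08).

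Impact, a paternally expressed inhibitor of the stress kinase GCN2, fell by nearly the same step in all 3 comparisons. It read 10.57, 10.48 and 10.54 with the scrambled hairpin, 9.75, 9.78 and 9.76 with shRNA 4, and 9.87, 9.93 and 9.88 with shRNA 5 (-0.77 ± 0.05 and -0.64 ± 0.05, SE, limma adjusted p = 2.87e-05 and 8.50e-05). In the Sin3A set it went from 11.03, 11.03 and 11.12 to 10.42, 10.43 and 10.47 (-0.62 ± 0.05, limma adjusted p = 1.91e-04). Grb10, a maternally expressed adaptor that restrains insulin signalling and growth, read 10.89, 10.86 and 10.89, then 10.33, 10.36 and 10.05 with shRNA 4 and 9.96, 10.28 and 10.18 with shRNA 5. Its scrambled arrays were nearly alike, and every knockdown array was lower (-0.63 ± 0.10 and -0.74 ± 0.10, SE, limma adjusted p = 0.00301 and 0.00116). With Sin3A, Grb10 read 11.51, 11.48 and 11.50 against 11.54, 11.53 and 11.53. All 3 Sin3A arrays were lower by a very small step that did not pass (-0.04, 95% interval -0.14 to 0.07).

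Slc38a4, a paternally expressed amino acid transporter gene, was the other member that rose with Sin3A. It went from 12.54, 12.51 and 12.46 to 12.82, 12.84 and 12.87 (0.34 ± 0.05, SE, limma adjusted p = 0.00214). In the Tet1 set it read 11.44, 11.28 and 11.41 with the scrambled hairpin, 11.36, 11.22 and 11.28 with shRNA 4, and 11.24, 11.27 and 11.25 with shRNA 5, a small shift that did not pass (-0.09 and -0.12). Gnas, whose isoforms are read from different copies and share this probe set, fell with shRNA 5 (-0.32 ± 0.06, limma adjusted p = 0.00495), and its change of -0.19 with shRNA 4 did not pass (0.0616). Mcts2, a retrogene within an intron of H13, was the member that rose with shRNA 5 (0.40 ± 0.08, limma adjusted p = 0.00893). It stood at 0.24 with shRNA 4 and 0.13 with Sin3A, neither of which passed, though the shRNA 4 change did with a replicate block over the scrambled and shRNA 4 arrays alone (limma adjusted p = 0.0484). Nnat, Plagl1 and Nap1l5 were dim and were not called, and neither was Zrsr1, matched by gene number (-0.20, -0.14 and -0.02).

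Sorted by parental copy, decreases occurred in both classes. Of 20 paternally expressed members 7 fell with both Tet1 hairpins (35.0%), and of 10 maternally expressed members 3 did (30.0%), against 3.40% of all probe sets. The 3 include Ube3a, classed as maternal here although it is known to be read from both copies in most cells other than neurons. With Sin3A, 4 paternally expressed members fell and 2 rose, and 2 maternally expressed members fell and 0 rose. That is 20.0% lower in each class, against 12.6% of all probe sets lower and 12.2% higher. The difference between the classes was not tested.

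The calls were also sorted by signal. In the Tet1 set 21 members had a scrambled signal above that of the median probe set, and 10 lay below it. Signals of different probe sets are not comparable as transcript numbers, so the median marks dim against bright probe sets only. All calls of the Tet1 comparisons were among the 21: 10 of them fell with both hairpins (47.6%), against 5.83% of all probe sets above the median. Of the 10 dim members 0 were called with either hairpin. Of all dim probe sets 1.60% fell and 3.39% rose with shRNA 4, and 1.98% fell and 3.17% rose with shRNA 5. With both hairpins 0.981% of them fell. Among the brighter members, 7 of 11 paternally and 3 of 9 maternally expressed genes fell with both, Ube3a again among the 3. In the Sin3A set 19 members lay above the median, of which 5 fell and 2 rose (26.3% and 10.5%, against 19.4% and 18.2% of all probe sets above it), and Mest was called among the 12 below it.

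**Figure D3:**
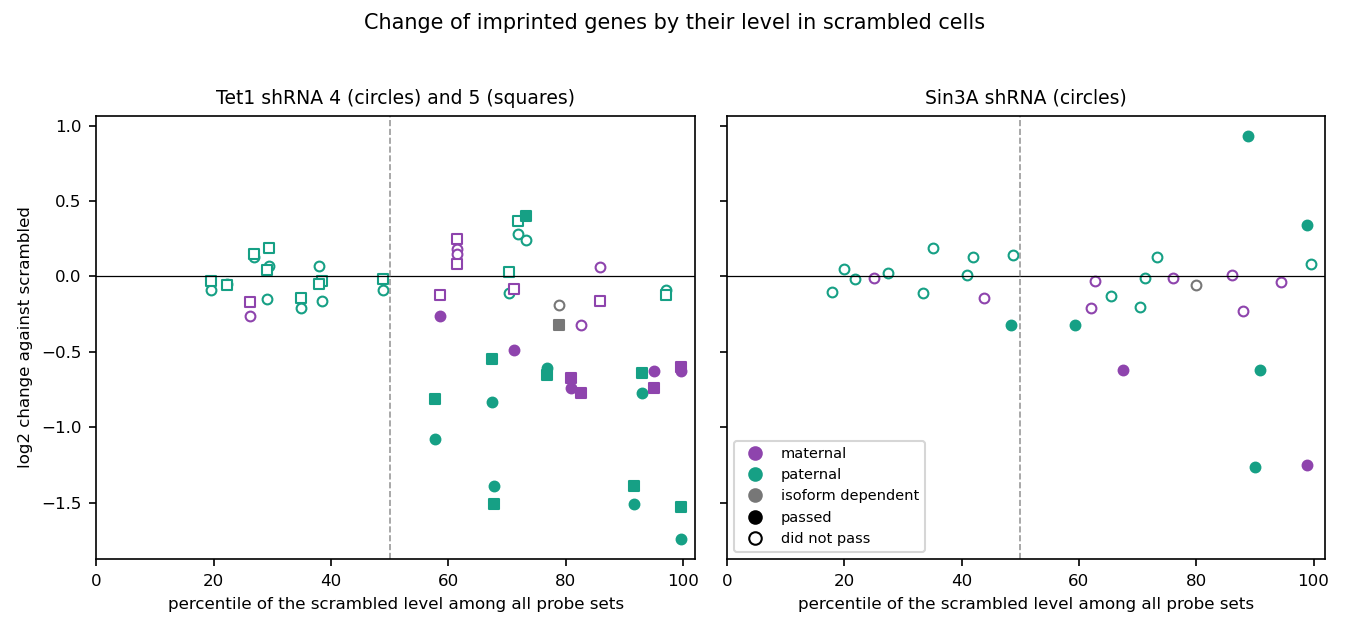
Log2 change against scrambled (y axis) by the percentile of the scrambled signal among all 21212 probe sets (x axis) for the 31 imprinted genes, in the Tet1 set (left, circles shRNA 4, squares shRNA 5) and the Sin3A set (right). Filled symbols passed, colours give the expressed copy, and the dashed line marks the median probe set. Left of that line lie 10 members in the Tet1 panel, none filled.

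Of the 10 members that fell with both Tet1 hairpins, Igf2, Mest, Phlda2, Sgce and Impact also fell with Sin3A. They were 5 of the 10 (50.0%) and 5 of the 6 that fell with Sin3A (83.3%), the other being Cdkn1c. Of all probe sets 1.34% fell in all 3 comparisons. These were 39.3% of all that fell with both Tet1 hairpins, near the members' share, and 10.6% of all that fell with Sin3A. Peg3 rose with Sin3A, and Peg10, Grb10, Zdbf2 and Ube3a were not called there.

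The difference between the knockdowns was tested directly, as the mean change of both Tet1 hairpins minus the Sin3A change in a fit of all 15 arrays. It was below 0 for 8 members (8.71% of all probe sets) and above 0 for 3 (11.3%). The largest was Peg3 at -2.38 ± 0.10 (SE, limma adjusted p = 3.66e-09), followed by Peg10 at -1.72 ± 0.07 (1.98e-09). Ube3a (-0.69 ± 0.12), Grb10 (-0.65 ± 0.11), Sgce (-0.62 ± 0.15) and Slc38a4 (-0.45 ± 0.07) passed with limma adjusted p of 0.00685 or less. Zdbf2 (-0.50 ± 0.15) and Mest (-0.37 ± 0.10) passed at 0.0259 and 0.0219. Each lost its call without scrambled replicate 1 or 3 of the Tet1 set or scrambled replicate 1 or Sin3A replicate 3 of the Sin3A set, Zdbf2 also without scrambled replicate 3 or Sin3A replicate 2 of that set, and Mest without Sin3A replicate 1 or with a replicate block (adjusted p = 0.0524 to 0.0755). In the other direction stood Phlda2 (0.64 ± 0.10, limma adjusted p = 2.86e-04) and Slc22a18 (0.34 ± 0.09, 0.0137). Cdkn1c (0.34 ± 0.10, 0.0311) joined them. That no longer held without scrambled replicate 1, scrambled replicate 3 or shRNA 5 replicate 2 of the Tet1 set, without any array of the Sin3A set other than Sin3A replicate 1, with a replicate block and with repeated quantile normalization (adjusted p = 0.0507 to 0.0923). Without the 2 arrays that stood apart, Meg3 (-0.36) and Ndn (0.32) passed as well (limma adjusted p = 0.0499 and 0.0307). For Igf2 the difference did not pass (-0.18, 95% interval -0.39 to 0.02), nor for Impact (-0.08, -0.22 to 0.06).

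**Figure D4:**
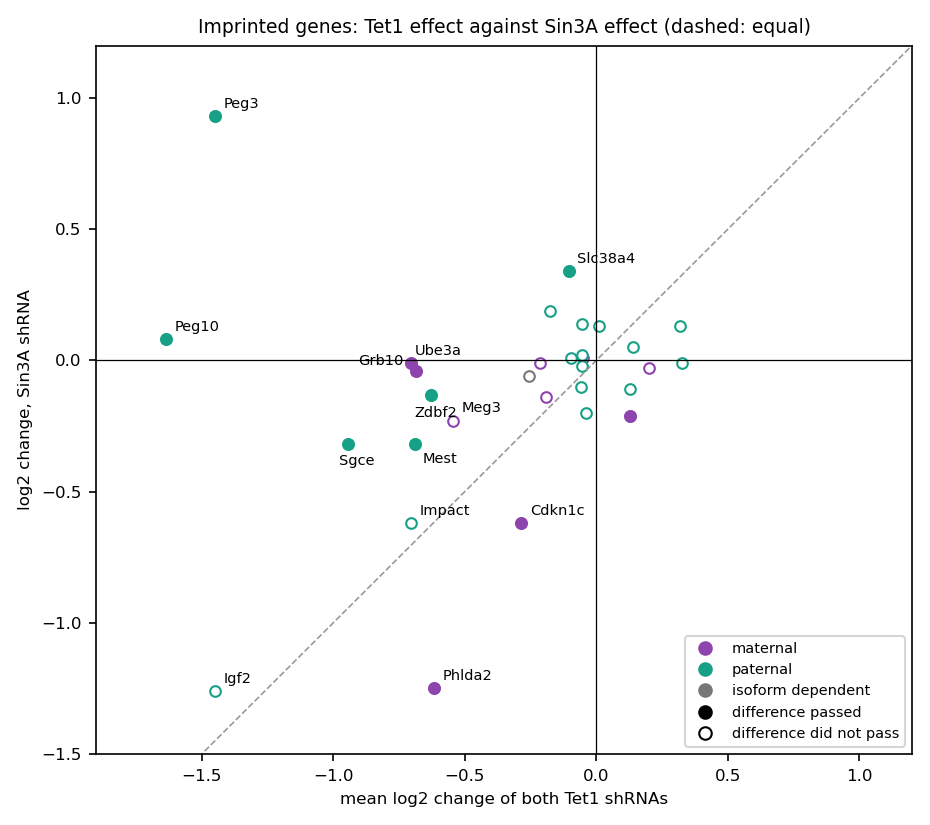
Mean log2 change of both Tet1 shRNAs (x axis) against the log2 change of the Sin3A shRNA (y axis) for the 31 imprinted genes, coloured by expressed copy. Filled points are members for which the difference between the knockdowns passed, and on the dashed line both changes are equal. Igf2 and Impact lie near that line, Peg3 at the upper left far from it, and Phlda2 below it.

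No member passed the test between the Tet1 hairpins. Of 31 members 0 were called between shRNA 5 and shRNA 4 in limma, against 0.0849% lower and 0.0566% higher among all probe sets. In the same test 7 members had an unadjusted p under 0.05, and the share of all probe sets at that threshold was not counted. The largest differences were Meg3 at -0.45 (95% interval -0.66 to -0.24) and Cdkn1c at 0.41 (0.22 to 0.60). For Phlda2 (0.03, -0.11 to 0.17) and Zdbf2 (-0.04, -0.30 to 0.21) the intervals bound any difference between the hairpins to less than 0.5.

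The factors that keep or read imprints were followed as a list of 25 genes. With both Tet1 hairpins 4 of the 25 fell (against 3.40% of all probe sets), Tet1 itself included, and 0 rose. Dnmt3b, a de novo DNA methyltransferase gene, changed by -0.99 and -0.64. Dppa3, whose product protects imprints in the early embryo, stood at -0.99 and -0.97, and the shRNA 4 change no longer passed once the pair of arrays that stood apart was left out (limma adjusted p = 0.0577). Ehmt1, a histone methyltransferase gene, changed by -0.24 and -0.23, calls lost without any 1 of 7 and of 8 of the arrays, scrambled replicate 1 or 3 and any shRNA 4 array among them, and with a replicate block (adjusted p = 0.0504 to 0.149). Zfp57 (0.03 and -0.01) and Trim28 (0.02 and 0.06) had bright signals and did not pass. With Sin3A 6 of the 25 fell and 8 rose (24.0% and 32.0%, against 12.6% and 12.2% of all probe sets). With a replicate block, or without scrambled replicate 1, 3 fell and 5 rose. Without Sin3A replicate 2, 2 fell and 4 rose, without scrambled replicate 2, 3 and 6, and without scrambled replicate 3, 4 and 4. Dppa3 fell (-0.91), Dnmt3b rose (0.27) and Zfp57 did not pass (-0.07).

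A further list held other imprinted genes and neighbours of imprinted domains, of which 42 of 44 were measured. With both Tet1 hairpins 2 fell and 3 rose (4.76% and 7.14%, near the 3.40% and 5.40% of all probe sets). Without shRNA 5 replicate 3, 1 rose. With Sin3A 9 fell and 4 rose (21.4% and 9.52%, against 12.6% and 12.2%), and 6 and 2 did without scrambled replicate 1 of that set. Sfmbt2, a paternally expressed Polycomb gene needed in the placenta, fell in all 3 comparisons (-1.24, -1.19 and -0.64). Smoc1, which encodes a secreted matrix protein, fell with both Tet1 hairpins (-0.87 and -0.89) and did not pass with Sin3A (-0.14). The AMP deaminase gene Ampd3 rose in all 3 (1.09, 0.95 and 0.63), and so did Cobl, an actin nucleator gene next to Grb10 (0.36, 0.28 and 0.51), whose call for shRNA 5 was lost without scrambled replicate 1 or shRNA 5 replicate 2 or 3 (adjusted p = 0.0521 to 0.0679). Ddc, the aromatic amino acid decarboxylase gene on the other side of Grb10, rose with both Tet1 hairpins (0.69 and 0.56, lost for shRNA 5 without scrambled replicate 3 or shRNA 5 replicate 3), so that Grb10 fell while its neighbours rose. H13, the host of Mcts2, was not called with either Tet1 hairpin (0.17 and 0.15).

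Promoter windows from RefSeq (GRCm38.p6), 250 bases before to 50 after each annotated start, were examined for 26 of the 31 members, 39 windows in all, some of which overlap. Peg10, Sgce, Rtl1 and Cdkn1c had no window. Impact was not examined, because windows on its chromosome were left out for members, though not from the 32851 windows below. Of these unexamined members, Peg10, Sgce and Impact fell with both Tet1 hairpins. The letters TGCCGC, on either strand, occurred in 11 windows of 10 members (28.2%), against 11.6% of all 32851 windows of that length. Member windows also held more CpG sites, with a median of 17 against 7. Among windows with at least 17 CpG sites, 8 of 20 member windows (40%) and 26.2% of all such windows held the hexamer. A match is a string of letters and not a measured binding site, and control regions often lie outside promoters.

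Markers of other cell types were followed beside these genes. Of 14 measured trophoblast markers, 6 had signals above the median probe set. In the scrambled arrays Cdx2, Eomes, Elf5, Gata3, Tfap2a, Plac1 and Tpbpa lay below it in both sets. The list contains Ascl2, a member. The mean log2 value of the list was 6.82 to 6.90 in the scrambled arrays, 6.64 to 6.69 with shRNA 4 and 6.72 to 6.76 with shRNA 5, and the log2 of its summed signal was 11.37 to 11.56, 10.90 to 10.97 and 11.01 to 11.04. In the Sin3A set the mean was 8.12 to 8.16 against 7.84 to 7.86 and the summed signal 12.99 to 13.03 against 12.38 to 12.44. With both Tet1 hairpins 5 of the 14 fell and 2 rose (35.7% and 14.3%, against 3.40% and 5.40% of all probe sets). With Sin3A 7 fell and 1 rose (50.0% and 7.14%, against 12.6% and 12.2%). The keratin genes Krt7 (-0.45 and -0.46), Krt8 (-1.40 and -1.39) and Krt18 (-1.03 and -0.92) fell with the Tet1 hairpins. The transcription factor gene Tfap2c (-0.71 and -0.63) and Fgfr2 (95% intervals -1.21 to -0.79 and -0.91 to -0.49) fell with them too. Of the other transcription factor genes, Eomes (1.28 and 1.40) and Gata3 (0.36 and 0.57) rose with both. Eomes went from 6.87 to 8.15 and 8.26, past the median probe set at 6.95. With Sin3A, Krt7 (-0.43), Krt8 (-1.01), Krt18 (-0.70) and Tfap2c (-0.62) fell as well. Eomes rose there (0.31), Gata3 fell (-0.42) and Fgfr2 did not pass (0.13). The part of such cells in the decreases of Igf2, Peg10, Phlda2 and other imprinted genes was not tested. Primitive endoderm markers had 7 of 17 signals above the median in the Tet1 set and summed log2 signals of 12.18 to 12.30, 12.49 to 12.59 and 12.62 to 12.66 for scrambled, shRNA 4 and shRNA 5. Fibroblast markers had 5 of 14 above it, with sums of 13.56 to 13.67, 13.88 to 13.94 and 13.85 to 13.92. With the Sin3A hairpin the primitive endoderm sum went from 13.22 to 13.26 in scrambled arrays to between 13.40 and 13.43, and the fibroblast sum from 14.31 to 14.32 to between 14.52 and 14.54. The stem cell markers gave 15.74 to 15.82, 15.82 to 15.84 and 15.75 to 15.79 in the Tet1 set, and 16.18 to 16.21 against 16.21 to 16.23 in the Sin3A set. Bright probe sets weigh most in such sums. The fibroblast mean log2 value did not rise with the Sin3A hairpin (7.97 to 8.06 in scrambled arrays, 7.91 to 8.01 with it). In the Tet1 set that mean overlapped between scrambled (6.90 to 7.07) and shRNA 4 arrays (7.01 to 7.11), and likewise for shRNA 5. The primitive endoderm mean was 8.04 to 8.09 against 8.10 to 8.13 in the Sin3A set. In the Tet1 set it was 6.91 to 7.12, 7.08 to 7.21 and 7.12 to 7.19.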

How the data were processed

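The authors deposited log2 expression values for 21212 probe sets on 15 arrays, and per the submitters' processing notes they were made with affy, RMA and limma, with no versions given. The genome build behind the array annotation is not stated in the labels used here. RMA normalizes arrays together, and the mean values show that the Tet1 set (9 arrays) and the Sin3A set (6 arrays) were handled separately. Each set was therefore fitted on its own by lmFit and eBayes of limma 3.58.1 (R 4.3.3), with two-sided tests, Benjamini-Hochberg adjustment over all probe sets and a threshold of 0.05. A fit of all 15 arrays gave the Tet1 change minus the Sin3A change. Fold changes are 2 to the power of the log2 difference. Intervals are 95% intervals of the fit. The number of arrays, 3 in each group, limits the precision.

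Members were found by symbol in the platform annotation, which named 18792 probe sets. Of the others, 1917 matched RefSeq by gene number. The members, the lists of control factors, neighbours and markers, and the genes named were chosen with earlier results of these data known. From the control factor, neighbour and trophoblast lists, changes are given for the genes that passed for both Tet1 hairpins. Zfp57, Trim28 and H13 were added for their role or position. The other marker lists are given by signal only, and genes in them that passed for both Tet1 hairpins are not named. In the Tet1 set 49.1% of probe sets had exactly tied values between arrays, 12 members among them, and in the Sin3A set 0 had. Replicate numbers are in the labels, with no meaning given. Deviations of same-numbered arrays correlated at 0.171 to 0.517 in all 3 pairs of scrambled and shRNA 4 arrays, which were therefore treated as paired, by this check alone, in an alternative chosen after seeing the data. The other pairs of groups did not meet the minimum of 0.1 in each pair: -0.287 to 0.0361 for scrambled and shRNA 5, and -0.274 to 0.0212 in the Sin3A set. Alternatives were median centring, repeated quantile normalization, a filter on dim probe sets, an intensity trend, other sets of arrays in a fit, a replicate block and leaving out each array.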

Additional observations from a re-analysis of the deposited data

Results flagged for a closer look

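The test of the Tet1 change (mean of both hairpins) minus the Sin3A change passed for 11 imprinted genes. It was below 0 for Peg3 (-2.38), Peg10 (-1.72), Ube3a (-0.69), Grb10 (-0.65), Sgce (-0.62), Zdbf2 (-0.50), Slc38a4 (-0.45) and Mest (-0.37), and above 0 for Phlda2 (0.64), Cdkn1c (0.34) and Slc22a18 (0.34), all on the log2 scale. The calls for Mest, Zdbf2 and Cdkn1c did not hold under every setting. Slc22a18 was called for the difference alone, with changes of 0.18 and 0.08 for the Tet1 hairpins and -0.21 for Sin3A that did not pass. The 2 sets have scrambled arrays and normalizations of their own, so set and knockdown target cannot be told apart in these differences. Groups of 3 arrays are too small for a formal outlier test of single values.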

How the results depend on the processing

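No called change of a member or of another named gene turned its direction under any alternative. Under the alternatives that keep all arrays, the counts of called members stayed within 1.5 times. Leaving out single arrays gave 11 to 12 members lower and 0 to 1 higher with shRNA 4, 12 lower in each run and 1 to 2 higher with shRNA 5, 10 to 11 lower and 0 to 1 higher with both, 6 to 7 lower and 2 to 3 higher with Sin3A, and 6 to 9 lower and 2 to 4 higher for the difference. The added higher member with the Tet1 hairpins was Ndn, without replicate 2 of shRNA 4. A replicate block over all arrays of a fit ended the calls of Ascl2 with shRNA 4 (adjusted p = 0.0517) and of Mest (0.0539) and Cdkn1c (0.0518) for the difference, and no other call of a member. The block over the scrambled and shRNA 4 arrays alone, chosen after seeing the data, moved the members higher with shRNA 4 from 0 to 1 and ended no call of a member. Gnas passed with shRNA 4 after repeated quantile normalization (limma adjusted p = 0.0288), without dim probe sets (0.0449) and with an intensity trend (0.0471). Choosing another probe set per gene could not be run, since 0 members had more than 1. Scrambled signals near the background limit what can be said of the 10 dim members.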

Other observations

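Some imprinted genes differed in rank between the scrambled arrays of the 2 sets. Igf2 stood at percentile 67.7 of all probe sets in the scrambled arrays of the Tet1 set and at 90.0 in those of the Sin3A set, and Mest at 67.4 and 48.5. Peg10 (99.6 and 99.5) and Impact (93.0 and 90.9) kept nearly the same rank. The sets were normalized separately, and these ranks were not tested.

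Within a set, the summed signal of the 31 members was lower in every knockdown array than in every scrambled array. Its log2 was 14.70 to 14.72 with the scrambled hairpin, 13.99 to 14.06 with shRNA 4 and 14.02 to 14.09 with shRNA 5, and 15.26 to 15.28 against 15.17 to 15.20 in the Sin3A set. Bright probe sets such as Peg10 and Phlda2 weigh most in such a sum.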
